A study of Rattus norvegicus with 8 samples.

Results

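The 10 genes described here belong to the Notch signalling pathway: the receptors Notch1, Notch2 and Notch3, the ligands Dll1, Dll4, Jag1 and Jag2, and the target genes Hes1, Hey1 and Heyl. They were taken by name, with earlier results of these data known. Each was represented by 1 probe set that names a single gene. All 10 were measured, among 14506 genes in all. Expression was measured on arrays of pancreatic islets from Sprague-Dawley rat fetuses at embryonic day 19. The IUGR group comprised 4 litters whose dams had surgery for intrauterine growth restriction on embryonic day 18, and the sham group comprised 4 litters whose dams had a control operation on the same day. The islets of 1 litter were pooled on 1 array, so n counts litters and differences between fetuses of a litter cannot be seen. Values are log2 expression, and differences are IUGR minus sham.

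Notch receptors are membrane proteins that are cut when a Delta or Jagged ligand on a neighbouring cell binds them. The freed intracellular part joins the DNA-binding protein RBPJ in the nucleus and switches on genes of the HES and HEY families, which encode transcriptional repressors. In the mouse pancreas, Hes1 holds progenitor cells back from the endocrine fate by repressing Neurog3, the factor that starts endocrine differentiation. Outside the epithelium, Dll4 and Notch1 act in endothelial cells, and Notch3 and Heyl are genes of vascular mural cells.

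The promoters of Hes1 and Dll1 are shown because Hes1 is the best known target of RBPJ in the pancreas and Dll1 is the member with the smallest p-value. Both are from RefSeq annotation of GRCr8 and run from 250 bases before to 50 bases after the annotated start. Capitals mark TGGGAA, the core letters bound by RBPJ, or its reverse complement TTCCCA. The Hes1 promoter lies at chr11:84212996-84213295 on the minus strand and the Dll1 promoter at chr1:64993225-64993524 on the minus strand.
Hes1: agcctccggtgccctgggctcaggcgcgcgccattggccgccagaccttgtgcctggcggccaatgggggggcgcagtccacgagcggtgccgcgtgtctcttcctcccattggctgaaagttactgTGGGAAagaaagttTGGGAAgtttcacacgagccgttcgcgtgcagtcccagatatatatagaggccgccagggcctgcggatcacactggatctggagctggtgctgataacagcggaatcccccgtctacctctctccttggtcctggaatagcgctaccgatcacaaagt
Dll1: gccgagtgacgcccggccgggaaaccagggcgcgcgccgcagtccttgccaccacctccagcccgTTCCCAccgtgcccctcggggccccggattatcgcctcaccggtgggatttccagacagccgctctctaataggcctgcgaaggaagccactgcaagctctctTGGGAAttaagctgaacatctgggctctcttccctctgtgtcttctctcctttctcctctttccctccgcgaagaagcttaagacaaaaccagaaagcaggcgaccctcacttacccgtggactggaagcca
In Hes1 the core occurred at 123 and at 109 bases before the start, both times on the strand of the gene. In Dll1 it occurred at 185 bases before the start on the opposite strand and at 82 bases before it on the strand of the gene. A promoter was found for 8 of the 10 members, and 3 of these (Notch3, Dll1 and Hes1) held the core at least once, as did 25.7% of all 33469 rat promoters of this length. A pair or more occurred in 3.85% of all promoters. The N-box letters CACNAG, searched on both strands, were found in Notch1, Notch3 and Hes1, where 43.1% of all promoters hold them. Neither motif was found in the Neurog3 window. A match of letters describes the sequence and does not show binding.

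Islet hormone transcripts were measured in every litter. Ins1 (insulin) lay between 13.15 and 13.51 in IUGR litters and between 13.21 and 14.01 in sham litters, and Gcg (glucagon) lay between 13.58 and 13.72 in IUGR and between 13.33 and 13.94 in sham litters. Some acinar and liver transcripts reached similar levels. The acinar transcript Ctrb1 lay between 14.02 and 14.06 in IUGR litters and between 13.08 and 14.05 in sham litters. The liver transcript Alb lay between 13.81 and 13.98 in IUGR litters and between 11.69 and 13.92 in sham litters. Means of the acinar list were 11.13 to 12.02 in IUGR and 9.61 to 11.18 in sham litters. Means of the liver list were 11.64 to 12.87 in IUGR and 9.46 to 11.74 in sham litters. Sham replicate 4 stood apart from the other litters. It was the lowest of the 8 litters for 30.8% of all genes, against 6.67% to 13.8% for each of the others. It was the highest for 19.9% of all genes, against 6.18% to 20.6% for each of the others. Its mean over 10 hormone and granule genes was 12.57, against 11.31 to 11.82 in the IUGR litters and 11.06 to 11.12 in the other sham litters. The spread of gene values on an array, as the interquartile range, was 3.53 to 3.62 in the IUGR litters, 3.63 in sham replicate 1 and 3.06 to 3.23 in sham replicates 2 to 4. The difference of each member is therefore also given without single litters or under another scaling where that moved it.

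None of the 10 Notch members differed between IUGR and sham islets past the threshold, an adjusted p of 0.05 (limma, Benjamini-Hochberg over all 14506 genes). Over all genes 36 passed, or 0.248%. At an unadjusted p under 0.05 the count of members was also 0, against 26.1% of all genes. In none of the 10 did the IUGR litters lie wholly above or below the sham litters, whereas 15.5% of all genes showed such a separation. Of the members 5 were higher and 5 lower in IUGR, with a median difference of 0.00, beside a median of 0.04 over all genes. After quantile normalization 2 were higher and 8 lower, with a median of -0.21 beside 0.00 over all genes. The spread over litters was larger in the sham than in the IUGR group for 10 of 10 members, as it was for 72.7% of all genes, and the median SD of the members was 0.22 in IUGR and 0.42 in sham litters. Without sham replicate 4 the sham spread was the larger in 4 of 10 members and in 55.2% of all genes, and the median SD of the members was 0.22 in IUGR and 0.20 in sham litters.

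**Figure D1:**
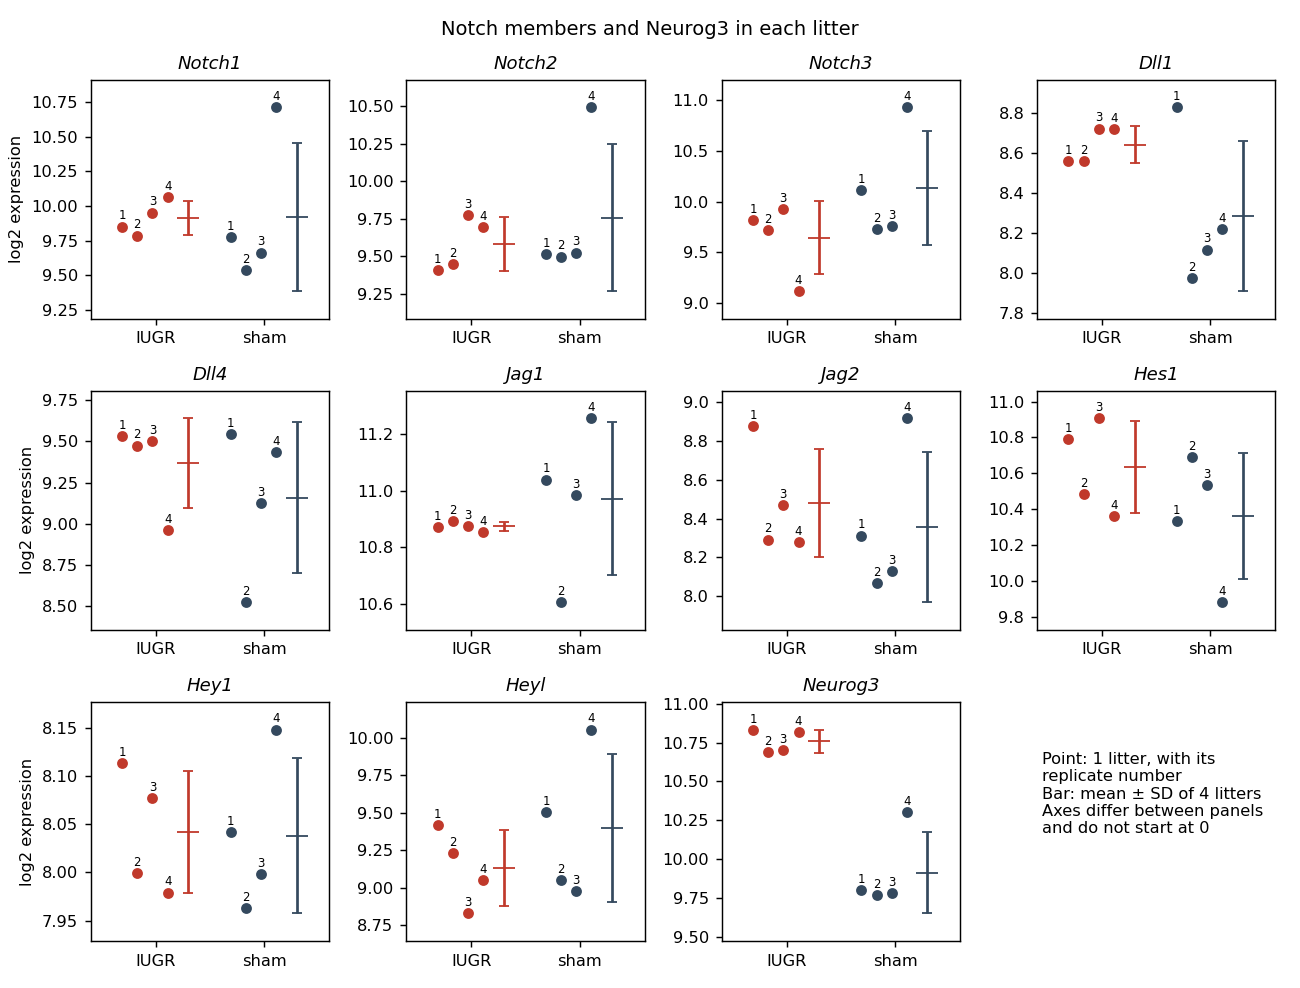
Log2 expression of the 10 Notch members and of Neurog3 in each litter, with IUGR litters on the left and sham litters on the right of each panel. Points are single litters with their replicate numbers, bars are means ± SD of 4 litters, and vertical axes differ between panels. The groups overlap in all 10 members, and sham replicate 4 is the highest of the 8 litters in 7 of them and the lowest in Hes1. Over all genes it is the highest in 19.9% and the lowest in 30.8%. Sham replicate 2 is the lowest in 6 members, and in 13.8% of all genes.

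The receptors had their highest value in sham replicate 4. Notch1 was 9.85, 9.79, 9.95 and 10.06 in IUGR replicates 1 to 4, against 9.77, 9.54, 9.66 and 10.71 in sham replicates 1 to 4. All 4 IUGR litters lay above 3 of the sham litters and below the other one, replicate 4. The means were 9.91 ± 0.12 in IUGR and 9.92 ± 0.54 in sham litters (SD, n = 4 each), a difference of -0.01 ± 0.24 (SE) with a limma adjusted p of 0.985 and a 95% interval of -0.57 to 0.55. Without sham replicate 4 the difference was 0.25 (limma adjusted p = 0.174), and after quantile normalization of all 8 arrays it was -0.23.

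Notch2 was 9.41, 9.44, 9.78 and 9.69 in IUGR litters, against 9.52, 9.50, 9.52 and 10.49 in sham litters. Sham replicates 1 to 3 lay within 0.03 of one another and replicate 4 lay 0.98 above their mean. The difference was -0.18 ± 0.23 (SE, n = 4 each, limma adjusted p = 0.637), with a 95% interval of -0.71 to 0.36, and it was 0.07 without sham replicate 4 and -0.40 after quantile normalization.

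Notch3, the receptor of mural cells, was 9.82, 9.72, 9.93 and 9.12 in IUGR litters, against 10.12, 9.73, 9.76 and 10.92 in sham litters. The lowest litter was IUGR replicate 4 and the highest was sham replicate 4, and the other 6 lay between them. The difference of -0.48 ± 0.29 (SE, n = 4 each, limma adjusted p = 0.310) was the largest of the members in size, with a 95% interval of -1.15 to 0.18. It was -0.22 without sham replicate 4, -0.31 without IUGR replicate 4 and -0.04 with array weights.

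The ligand Dll1, which endocrine precursors display to their neighbours in the mouse pancreas, had the smallest p-value of the members. It was 8.56, 8.56, 8.72 and 8.72 in IUGR litters, against 8.83, 7.98, 8.12 and 8.22 in sham litters. All IUGR litters lay above sham replicates 2, 3 and 4, while sham replicate 1 was the highest of all 8. The means were 8.64 ± 0.09 in IUGR and 8.28 ± 0.38 in sham litters (SD, n = 4 each), a difference of 0.35 ± 0.18 (SE, limma adjusted p = 0.237) with a 95% interval of -0.05 to 0.76. Without sham replicate 1 Dll1 was 0.54 higher in IUGR (limma adjusted p = 0.013), a fit in which 2738 genes, 18.9% of all, passed. With array weights it was 0.51 higher (limma adjusted p = 0.0038), where 43.8% of all genes passed. Leaving out any other single litter gave no call for Dll1. Rescaling made the difference smaller, at 0.15 after quantile normalization (limma adjusted p = 0.488), 0.19 after cyclic loess and 0.12 after median centring (limma adjusted p = 0.541).

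Dll4, a ligand of endothelial cells, was 9.53, 9.47, 9.50 and 8.96 in IUGR litters, against 9.54, 8.52, 9.12 and 9.43 in sham litters. In IUGR, replicates 1 to 3 lay close together and replicate 4 lay below them, within the sham range. The difference was 0.21 ± 0.24 (SE, n = 4 each, limma adjusted p = 0.578), with a 95% interval of -0.33 to 0.75, and it was 0.35 without IUGR replicate 4, 0.34 without sham replicate 1 and -0.0002 without sham replicate 2. After quantile normalization it was -0.02.

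Jag1, a ligand of the developing pancreatic epithelium, was nearly constant in the IUGR litters, at 10.87, 10.89, 10.88 and 10.85. In the sham litters it was 11.04, 10.61, 10.99 and 11.26, so that replicate 2 lay below and the other 3 lay above all IUGR litters. The difference was -0.10 ± 0.13 (SE, n = 4 each, limma adjusted p = 0.648), with a 95% interval of -0.40 to 0.21. It was -0.0033 without sham replicate 4, -0.22 without sham replicate 2, -0.25 after quantile normalization and -0.33 after median centring. Jag2 was 8.88, 8.29, 8.47 and 8.28 in IUGR litters, against 8.31, 8.07, 8.13 and 8.92 in sham litters. One litter of each group, IUGR replicate 1 and sham replicate 4, stood above the other 6. The difference was 0.12 ± 0.21 (SE, limma adjusted p = 0.726), with a 95% interval of -0.37 to 0.61. It was 0.31 without sham replicate 4 and -0.0089 without IUGR replicate 1, and -0.11 after quantile normalization.

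Hes1, the repressor of Neurog3 in the mouse, was 10.79, 10.49, 10.91 and 10.36 in IUGR litters, against 10.34, 10.69, 10.54 and 9.88 in sham litters. The groups overlapped, with IUGR replicates 1 and 3 above every sham litter and sham replicates 1 and 4 below every IUGR litter. The means were 10.64 ± 0.26 in IUGR and 10.36 ± 0.35 in sham litters (SD, n = 4 each), a difference of 0.28 ± 0.20 (SE, limma adjusted p = 0.385). The 95% interval ran from -0.18 to 0.73, which is 0.886-fold to 1.65-fold. Without sham replicate 4 the difference was 0.12, after quantile normalization 0.11 and after median centring 0.0446. Hes1 was the 1 member that was lowest in the litter where the 3 receptors were highest.

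Hey1 hardly varied, with 8.11, 8.00, 8.08 and 7.98 in IUGR litters, against 8.04, 7.96, 8.00 and 8.15 in sham litters. No detection calls were used, so whether this probe set lay above background was not tested. The difference was 0.00 ± 0.08 (SE, n = 4 each, limma adjusted p = 0.978), with the narrowest 95% interval of the members, -0.17 to 0.18. After quantile normalization it was -0.18. Heyl, a mural cell target, was 9.42, 9.23, 8.83 and 9.05 in IUGR litters, against 9.51, 9.05, 8.98 and 10.05 in sham litters. Sham replicates 1 and 4 lay above every IUGR litter, and sham replicates 2 and 3 lay among them. The difference was -0.27 ± 0.25 (SE, limma adjusted p = 0.499), with a 95% interval of -0.83 to 0.30, and it was -0.05 without sham replicate 4 and -0.50 after quantile normalization.

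**Figure D2:**
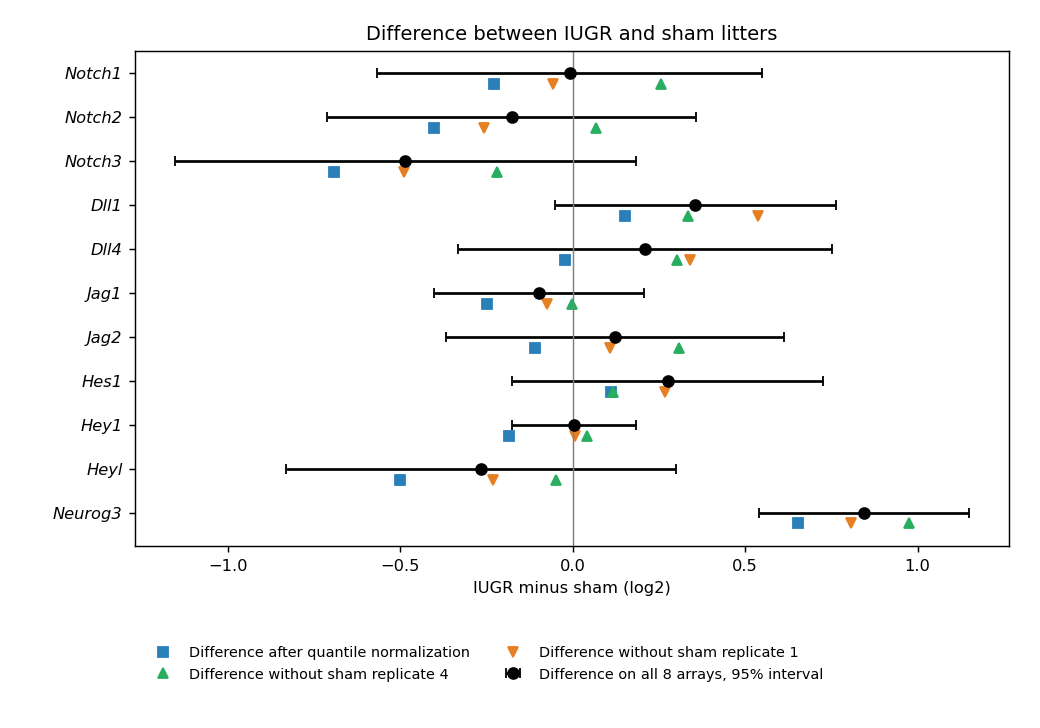
Difference between IUGR and sham litters on the log2 scale for each Notch member and Neurog3. Black points and bars are the values on all 8 arrays with unadjusted 95% intervals, and coloured symbols give the difference after quantile normalization and without sham replicate 4 or 1. All 10 members have an interval that includes 0, with Notch3 at -0.48 and Dll1 at 0.35 the farthest from it.

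Some marker lists of other cell types were also at their highest or lowest in sham replicate 4. In sham replicate 4 Notch1, Notch2 and Notch3 lay 1.05, 0.98 and 1.06 above the mean of the other sham litters, Heyl 0.87 above and Jag2 0.75 above, while Hes1 lay 0.64 below. The mean of 12 endothelial markers was 11.70 in that litter, against 10.61 to 11.24 in the IUGR litters and 11.03 to 11.44 in the other sham litters. The mean of 8 mesenchyme markers was 12.03 in it, against 9.94 to 11.20 in IUGR and 11.18 to 11.38 in the other sham litters. Its means of liver transcripts (9.46) and acinar markers (9.61) were the lowest of the 8 litters. Of the 12 endothelial markers 10 were highest of the 8 litters there, and 7 of the 8 mesenchyme markers, against 19.9% of all genes. The mean of 10 markers of mural cells, which express Notch3 and Heyl, was 10.90 there, against 9.58 to 11.15 in the IUGR litters, and 3 of the 10 were highest there. The part of these cells in the receptor values was not tested, and in pooled tissue more cells of a type cannot be told apart from more RNA per cell.

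IUGR replicate 4, the litter lowest in Notch3 and lowest of its group in Dll4, was also the lowest of all 8 in the means of endothelial (10.61), mural (9.58) and mesenchyme (9.94) markers. Mural means were 10.75 to 11.15 in the other IUGR litters and 10.24 to 10.90 in the sham litters. Across the groups, 12 of 12 endothelial, 7 of 10 mural, 8 of 8 mesenchyme and 10 of 10 macrophage markers were lower in IUGR and none of these passed the threshold. All 8 measured duct markers were higher in IUGR, with a median difference of 0.86, and 1 of them, the keratin gene Krt8, passed at 1.07 (limma adjusted p = 0.043). That call held in 5 of 17 alternatives and was lost after quantile normalization (0.97, limma adjusted p = 0.142), among others. The duct mean was 10.81 to 11.16 in IUGR and 9.67 to 10.25 in sham litters. All 10 acinar and 10 liver transcripts were also higher, by medians of 1.03 and 1.82, and 0 passed. The share of these markers in the member values was not tested.

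**Figure D3:**
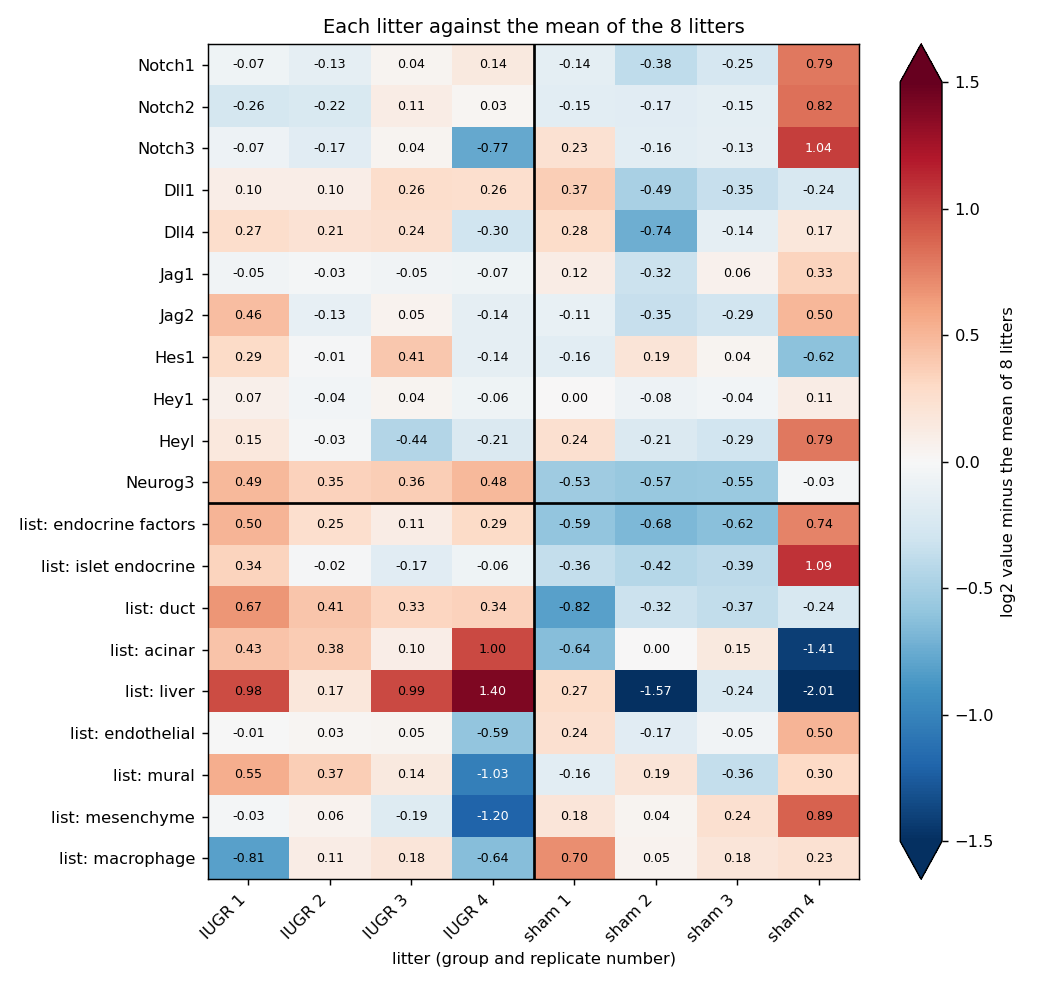
Each litter's log2 value minus the mean of the 8 litters, for the Notch members and Neurog3 (upper block) and for the means of the cell marker lists (lower block). IUGR litters are on the left and sham litters on the right of the vertical line, and colours saturate at the ends of the scale. Sham replicate 4 is high in the 3 receptors, in Heyl and in the islet, endothelial and mesenchyme lists, and low in Hes1, while IUGR replicate 4 is low in Notch3 and in the endothelial, mural and mesenchyme lists.

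The rest of the pathway gave a similar count. Of 46 other Notch pathway genes 38 were measured, and 0 passed the threshold in either direction, with a lowest adjusted p of 0.077 (limma). At an unadjusted p under 0.05, 7 were higher and 0 lower, which is 18.4% of the list and below the 26.1% of all genes. The groups did not overlap in 8 (21.1%), against 15.5% of all genes. Of these, 7 were higher in IUGR and 1, Hes3, was lower, at -0.17 (limma adjusted p = 0.236). Of the 38, 23 were higher in IUGR (60.5%, against 55.1% of all genes), with a median of 0.09 beside 0.04 over all genes. After quantile normalization 12 were higher and 26 lower, with a median of -0.09. Without sham replicate 1, 6 passed, which is 15.8% of the list against 18.9% of all genes.

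Among the genes that cut the receptor, Aph1a had the smallest p-value of this list. Aph1a, a subunit of gamma-secretase, was 11.23, 11.20, 11.28 and 11.25 in IUGR litters, against 10.95, 10.87, 10.91 and 10.76 in sham litters. Every IUGR litter lay above every sham litter, and the difference was 0.36 ± 0.07 (SE, n = 4 each, limma adjusted p = 0.077). Ncstn, another gamma-secretase subunit, differed by 0.31 ± 0.10 (limma adjusted p = 0.133), again with no overlap. The subunit genes Psen2, Aph1b and Psenen differed by 0.23, 0.11 and -0.0037.

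Of the genes that act on receptor traffic, Dtx4, a Deltex ubiquitin ligase, was 9.05, 8.74, 8.43 and 8.83 in IUGR litters, against 8.12, 8.01, 7.96 and 8.34 in sham litters. The groups did not overlap, and the difference of 0.65 ± 0.15 (SE, n = 4 each, limma adjusted p = 0.088) was the largest of the list. Numb, an endocytic adaptor that opposes Notch signalling, differed by 0.34 ± 0.11 (limma adjusted p = 0.129). Pofut1, which adds the fucose that receptors need for ligand binding, differed by 0.25 ± 0.09 (limma adjusted p = 0.141). Hes6, a family member that counteracts Hes1, was 8.06, 8.07, 7.96 and 8.26 in IUGR litters, against 7.82, 7.69, 7.83 and 7.58 in sham litters, and the groups did not overlap. Its difference was 0.36 ± 0.10 (SE, n = 4 each, limma adjusted p = 0.119). Without sham replicate 1, and with array weights, Aph1a, Dtx4, Hes6, Numb and Ncstn passed, and Pofut1 did not. In these fits 18.9% and 43.8% of all genes passed, in that order. Rescaling made all 6 differences smaller. After quantile normalization Aph1a was 0.22, Dtx4 0.42, Hes6 0.21, Numb 0.15, Ncstn 0.16 and Pofut1 0.0455, and after median centring Aph1a was 0.13, Dtx4 0.42, Hes6 0.13, Numb 0.11, Ncstn 0.0761 and Pofut1 0.0208. The groups then overlapped in these genes, except in Aph1a after quantile normalization. In the nucleus, Rbpj itself differed by 0.11 ± 0.13 (limma adjusted p = 0.593), and the target gene Nrarp by 0.21 ± 0.18 (limma adjusted p = 0.477). Snw1, grouped with the nuclear complex, differed by 0.42 ± 0.16 (limma adjusted p = 0.151), and the groups did not overlap in it.

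**Figure D4:**
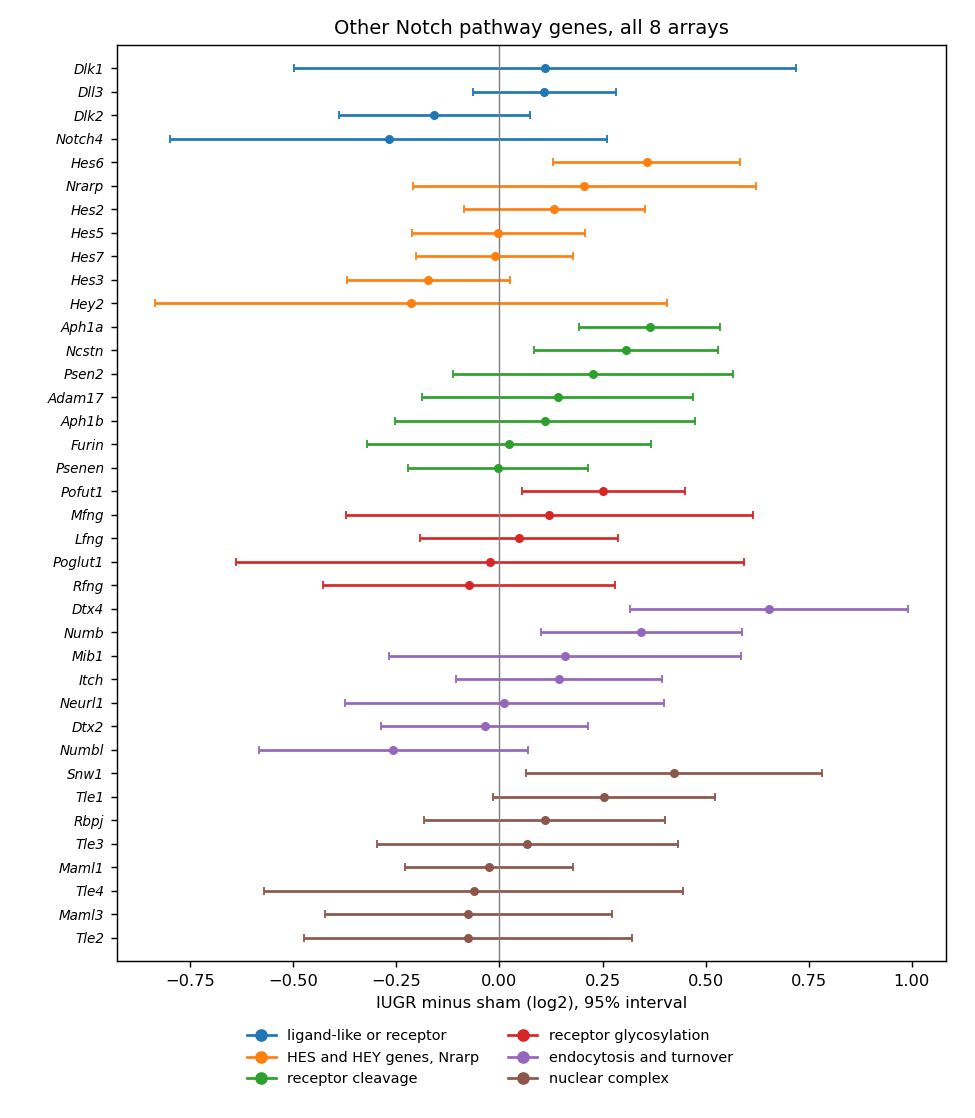
Difference between IUGR and sham litters (log2, all 8 arrays) for the 38 other Notch pathway genes, grouped by role. Points are differences and bars unadjusted 95% intervals. Dtx4 is farthest from 0 at 0.65, followed by Snw1 at 0.42 and Aph1a at 0.36, and none of the 38 passed the threshold after adjustment.

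Neurog3, which Hes1 represses, was 10.83, 10.69, 10.70 and 10.82 in IUGR litters, against 9.80, 9.77, 9.78 and 10.31 in sham litters. The groups did not overlap, and sham replicate 4 lay between the other sham litters and the IUGR litters. The difference was 0.84 with a 95% interval of 0.54 to 1.15 and a limma adjusted p of 0.053. It did not pass on all 8 arrays. It passed without the dimmest 30% of genes (limma adjusted p = 0.045), with array weights, and without sham replicate 1 or 4. In these fits 0.581%, 43.8%, 18.9% and 1.08% of all genes passed, in that order. In the measured endocrine factors 9 of 9 were higher in IUGR and 0 passed, Pax4 differing by 0.61, Rfx6 by 0.95 and Isl1 by 0.67. All 3 passed with array weights, as did 43.8% of all genes. Without sham replicate 4 Rfx6 passed at 1.35 and Isl1 at 0.97, and Pax4 did not pass. For both Hes1 and Neurog3 the IUGR mean was above the sham mean, and neither passed on all 8 arrays. The evidence was unlike, since the groups overlapped in Hes1 and its 95% interval of -0.18 to 0.73 included 0. Factors of pancreatic progenitors were higher in 6 of 6 measured genes, with a median of 0.64 and 0 past the threshold.

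Because the groups were separate in Neurog3, no correlation over the pooled litters is given. Within the groups Neurog3 varied little, by 0.14 over the 4 IUGR litters and by 0.03 over sham replicates 1 to 3, with replicate 4 lying 0.52 above these. After the group means were removed, Hes1 had a Pearson's r of -0.75 and a Spearman's rho of -0.67 with Neurog3 over the 8 litters (exact permutation within groups, p = 0.0625 and 0.0938, adjusted p = 0.128 and 0.188 over the 10 members). Notch1 had an r of 0.96 and a rho of 0.93 (exact permutation p = 0.0469 and 0.0365, adjusted p = 0.128 and 0.122). For Jag2 r was 0.84 and rho 0.83 (exact permutation p = 0.0469 and 0.026, adjusted p = 0.128 and 0.122). For Heyl r was 0.83 and rho 0.76 (exact permutation p = 0.0521 and 0.0295, adjusted p = 0.128 and 0.122). Notch2 had an r of 0.88 and a rho of 0.81, with larger p-values (exact permutation p = 0.177 and 0.165, adjusted p = 0.253 and 0.236). Over the 10 members r ran from -0.75 to 0.96, and 0 passed after adjustment in either measure.

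These values depended on sham replicate 4. Without it, r was -0.25 for Hes1 (exact permutation p = 0.493), 0.43 for Notch1 (exact permutation p = 0.375) and 0.50 for Jag2 (exact permutation p = 0.382). In the same 7 litters r was 0.43 for Heyl (exact permutation p = 0.41) and -0.16 for Notch2 (exact permutation p = 0.597). After quantile normalization of all 8 arrays r was -0.30 for Hes1 and 0.95 for Notch1. Without the pair of litters whose Neurog3 deviation from the group mean was farthest from the median deviation of the 8, sham replicate 4 and IUGR replicate 1, r was -0.62 for Hes1, 0.78 for Notch1 and -0.13 for Jag2, with adjusted p-values of 0.835 to 0.944 (exact permutation). Of 7252 genes with a mean above the median of the table, those whose deviations from the group means were most like those of Neurog3 over the 8 litters were Hadh, Ptprn2, Lama5, Vwa5b2 and Pax6, with r from 0.988 to 0.997. Those most like Hes1 were Rpl21, Car11, Rpl35a, Rps15 and Gstp1, with r from 0.925 to 0.949. All of these values come from the same 8 arrays, sham replicate 4 included.

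**Figure D5:**
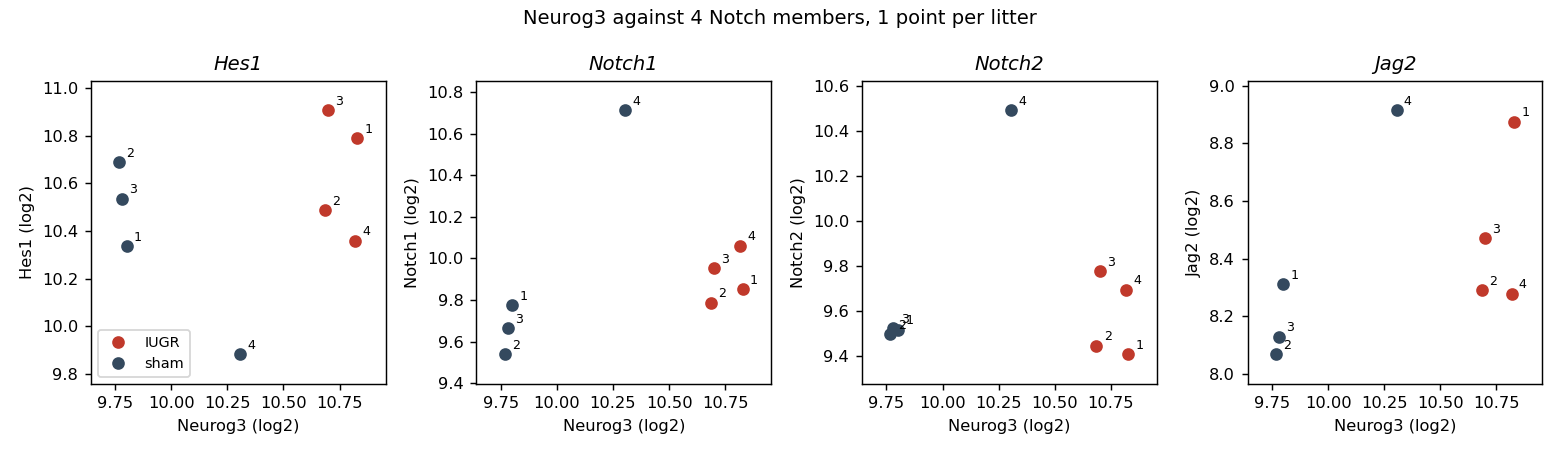
Log2 expression of Hes1, Notch1, Notch2 and Jag2 against Neurog3, with 1 point per litter labelled by its replicate number. IUGR litters lie between 10.69 and 10.83 on the Neurog3 axis, sham replicates 1 to 3 between 9.77 and 9.80, and sham replicate 4 at 10.31, where Hes1 is lowest and the other 3 genes are highest.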

How the data were processed

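Total RNA was profiled on whole-transcript arrays with a biotin label (GeneChip kit, per the labels), 1 per litter, 4 IUGR and 4 sham litters. The deposited values are log2 expression made by the authors with RMA, per the submitters' processing notes; no source used here gives its version or filters. Of 29214 probe sets, 15310 named 1 gene by the platform annotation, 323 several and 13581 none. Symbols were updated by gene identifier, and the brightest probe set per gene left 14506 genes. Differences were fitted over all of them in limma 3.58.1 (R 4.3.3, two-sided, Benjamini-Hochberg), with 8.21 total degrees of freedom. Intervals are the moderated fit's at 95%. The fit was tested on simulated data with independent normal noise, equal spread in both groups and no array effects. It found 70.1% of 2-fold and 94.2% of 4-fold changes there. The real arrays differ in spread, so these shares need not hold for them.

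Members, lists and tests were chosen with earlier results of these data known. Named were all members, Neurog3, the 6 other pathway genes and 4 endocrine factors of smallest p, and markers past the threshold. The 5 genes most like Neurog3 and Hes1 were named too. Defining markers were named for the islet, acinar and liver lists and not for the other lists. Psen2, Aph1b, Psenen, Rbpj, Nrarp, Snw1 and Hes3 were named after their values were seen. Relations to Neurog3 were tested by permuting litters within groups (576 arrangements, smallest p 0.00174). Alternatives were quantile, cyclic loess and median scaling, a filter on dim genes, a trended robust prior, array weights, a replicate block, other probe set rules, and each litter left out. Arrays have no read depth, and their number limits precision.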

Additional observations from a re-analysis of the deposited data

Results flagged for a closer look

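In 3 of the 22 groups of 4 litters examined, 1 litter lay apart from the other 3 by Dixon's ratio of its gap to the range of the group, with a critical value of 0.829. Chance alone flags about 1 group in 20. In sham litters, Notch2 was highest in replicate 4 with a ratio of 0.974, and Neurog3 was highest in replicate 4 with a ratio of 0.939. In IUGR litters, Dll4 was lowest in replicate 4 with a ratio of 0.9.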

How the results depend on the processing

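The count of genes past the threshold was not stable. It was 36 on all arrays, 0 after quantile normalization, cyclic loess or with the replicate block, 1 after median centring, 59 without the dimmest 30%, 6358 with array weights and 3 with all probe sets; 3305, 3290 and 2715 genes had an unadjusted p under 0.05 in the 3 fits with a count of 0 (limma). With 1 litter left out it ran from 0 to 2738, the highest being without sham replicate 1. The count of Notch members past the threshold was 1 (Dll1) with array weights and 0 to 1 with 1 litter left out. For the other pathway genes these counts were 14 and 0 to 6. With array weights this was 10% of the members and 36.8% of the other pathway genes, against 43.8% of all genes. The highest counts with 1 litter left out came without sham replicate 1, where 18.9% of all genes passed. The median difference of the members ran from -0.23 to 0.12 over scalings and other fits, and from -0.08 to 0.09 with 1 litter left out. Median centring moved the median of all genes from 0.04 to -0.19, and after it 2 members were higher and 8 lower. Of 170 alternative values of the 10 member differences, 22 had the opposite sign. With array weights Notch1 was 0.21, Notch2 0.0365 and Heyl 0.0878. After quantile normalization, cyclic loess and median centring, in that order, Dll4 was -0.0225, -0.0002 and -0.0204, Jag2 -0.11, -0.037 and -0.11, and Hey1 -0.18, -0.11 and -0.23. With 1 litter left out, Notch1 ran from -0.14 to 0.25, Notch2 from -0.26 to 0.0681, Dll4 from -0.0002 to 0.35, Jag2 from -0.0089 to 0.31 and Hey1 from -0.0208 to 0.0408. Notch3, Dll1, Jag1 and Hes1 had the same sign in all 17 alternatives, but came near 0 in some: Notch3 ran from -0.72 to -0.043, Dll1 from 0.12 to 0.54, Jag1 from -0.33 to -0.0033 and Hes1 from 0.0446 to 0.38. The cause of these changes was not tested. Whether the replicate numbers pair the litters is not known. Same-numbered litters' deviations correlated at -0.435, 0.0953, -0.124 and -0.128, and those of other pairs at -0.172 to 0.379. So few correlations cannot decide it. With the replicate block 0 members passed, but so did 0 of all genes, so that count does not bear on pairing. The count of members related to Neurog3 past the threshold was 1 after quantile normalization (Hey1, r = 0.97, exact permutation adjusted p = 0.0174) and 0 to 2 with 1 litter left out (Jag2 and Hey1 without IUGR replicate 4, by Pearson's r, exact permutation adjusted p = 0.0347, but not by Spearman's rho, 0.0693). Without sham replicate 4 and IUGR replicate 1, farthest from the median of the Neurog3 deviations, a fit added after the data were seen, r was -0.72 for Notch3, 0.32 for Dll1, -0.31 for Dll4, -0.13 for Jag2 and -0.32 for Hey1. With 1 litter left out it ran from -0.32 to 0.59 for Dll1, from -0.16 to 0.96 for Notch2, from -0.37 to 0.93 for Notch3 and from -0.10 to 0.52 for Dll4.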
